A study of Rattus norvegicus with 14 samples.

Results

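The genes of the bone morphogenetic protein (BMP) and transforming growth factor beta (TGF-beta) pathways were followed by RNA-seq in PCCL3 cells, a differentiated rat thyroid follicular cell line. Members were chosen by symbol, as the Bmp, Gdf, Tgfb and inhibin genes, the Bmpr, Tgfbr and Acvr receptors, the Smad genes, Id1 to Id4, the Ltbp genes, and Nog, Chrd, Grem1, Fst, Fstl1, Fstl3, Bambi and Nbl1. This gave 61 of the 16816 gene symbols in the count table. EV cells carried the empty vector, and PPFP cells stably expressed the human PAX8-PPARG fusion protein of follicular thyroid carcinoma with a Myc tag. Each line was cultured for 16 hours with 1 μM pioglitazone, a synthetic PPARG agonist that also binds PPFP, or with vehicle (pioglitazone was dissolved in DMSO). All 4 groups were grown in serum-containing medium with thyrotropin, insulin, transferrin and hydrocortisone, and each group had 3 libraries from independent experiments. The groups come from a pair of stable lines, so the fusion protein and other differences between the lines cannot be told apart, and whether each line was a single clone is not given in the sources used here. The p-values measure the spread between repeated cultures of the same lines.

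BMPs, growth and differentiation factors (GDFs), activins and TGF-betas are secreted dimers that bring together type I and type II serine/threonine kinase receptors. The type I receptor phosphorylates SMAD proteins, mainly SMAD1, SMAD5 and SMAD9 on the BMP side and SMAD2 and SMAD3 on the TGF-beta and activin side, which enter the nucleus with SMAD4. The ID genes are direct targets of BMP signalling, SMAD6 and SMAD7 are feedback inhibitors, and in thyroid follicular cells TGF-beta and activin are known to restrain growth and to oppose the action of thyrotropin.

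Libraries held between 23724703 and 35240176 counts. Pparg, the gene that the fusion should raise, was at a mean of 1.61 ± 0.322 CPM (SD, n = 3; CPM is the scaled count relative to the library total) in untreated EV cells against 53.6 ± 6.56 CPM in untreated PPFP cells, and at 1.9 ± 0.798 against 57 ± 5.54 CPM with pioglitazone; how many reads of the human transgene reach the rat gene was not tested. Pax8, the gene of the other fusion partner, was at 738 ± 55.2 CPM in EV and 688 ± 15.4 CPM in PPFP cells without pioglitazone (-0.081 on the log2 scale, adjusted p = 0.47) and at 728 ± 57.2 and 545 ± 8.19 CPM with it (-0.39, adjusted p = 0.007). All 10 thyroid markers examined had a mean above 1 CPM in every group. Of the other cell types, the summed markers were at most 0.201 CPM for endothelial cells and 0.0378 CPM for C cells. They were between 4.59 and 7.13 CPM for macrophages, with Cd14 and, in PPFP cells with pioglitazone, Cd68 above 1 CPM. The fibroblast markers summed to between 20.4 and 34.5 CPM, with Col3a1, Dcn and Lum at 0 and Col1a1 and Pdgfra above 1 CPM in every group. Pdgfra held most of that sum, at means of 21.2 and 21.8 CPM in EV cells without and with pioglitazone. In PPFP cells Pdgfra was at 24.9 CPM without and 29.4 CPM with pioglitazone. The 6 adipocyte markers summed to between 9.44 and 13.9 CPM in EV cells, to between 721 and 742 CPM in PPFP cells without pioglitazone and to between 974 and 1006 CPM with it. Cfd held most of that sum, at 702 to 723 CPM and 912 to 932 CPM in PPFP cells without and with pioglitazone. Plin1 (a mean of 6.39 and 40.8 CPM) and Cidec (7.99 and 22 CPM) were also higher with it, Adipoq was lower (4.5 and 2.39 CPM, against 2.13 CPM in untreated EV cells), Fabp4 was at most 0.189 CPM and Lep was at 0, and the part of this difference in the results that follow was not tested.

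The first question was which pathway genes differ between untreated PPFP and EV cells. Most members that differed were lower in PPFP cells. They included the ligands Bmp4, Bmp2, Inhbb and Inha, the latent TGF-beta binding proteins, the antagonist Chrd, the receptor Acvr1 and the feedback inhibitor Smad7, while the receptor Bmpr1b was 10.9-fold higher. Of the 46 members with enough counts to be tested, 27 (58.7%) passed an adjusted p of 0.05 with lower levels in PPFP cells and 4 (8.7%) with higher levels, against 23.1% lower and 22% higher of all 10264 genes tested. With a fold change above 2 in addition, 11 members were lower and 1 was higher, against 7.31% and 7.27% of all genes. Of these 11, Bmp4, Inha, Bmp5, Chrd and Nbl1 had few counts in PPFP cells and were tested largely through their EV counts. These 5 are also among the 27 lower members. Where every library needed at least 10 counts these 5 were not tested, and 6 members were lower and 1 higher past the fold of 2. Under that filter 4092 of all 9550 genes tested passed the adjusted p, and the share past the fold of 2 was not counted. The median log2 fold change was -0.48 over the members and 0.0016 over all genes. In either direction 45.2% of all genes passed the adjusted p, and the counts by role below are to be read beside that share. Together the members held between 0.295% and 0.313% of the counts of an EV library and between 0.216% and 0.236% of a PPFP library. In these bulk samples, fewer cells of a type and less RNA per cell cannot be told apart.

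**Figure D1:**
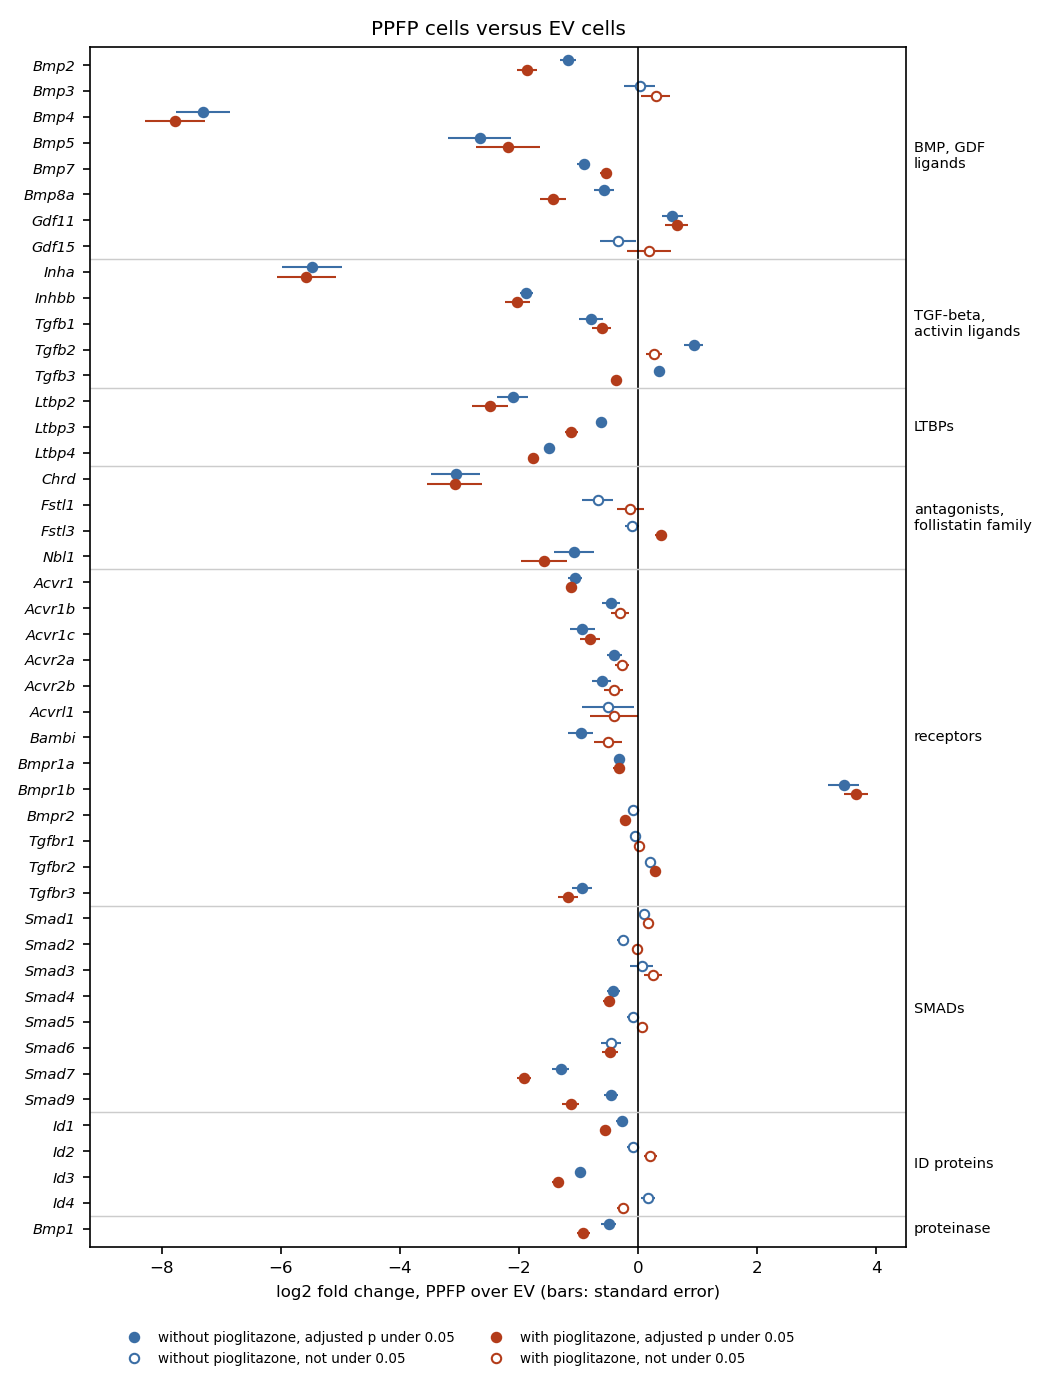
Log2 fold change of PPFP cells over EV cells without (blue) and with pioglitazone (red) for the 46 tested members, grouped by role, with standard errors; filled points have an adjusted p under 0.05. Most filled points lie left of 0, and the points run from Bmp4 at -7.77 to Bmpr1b at 3.67, both with pioglitazone.

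Of the 18 BMP and GDF ligands, 8 were tested, of which 5 were lower in PPFP cells, 1 was higher and 2 did not pass. Bmp4, a ligand with roles in foregut patterning and in many epithelia, was at 8.81, 7.03 and 4.76 CPM in EV libraries 1, 2 and 3 and at 0.0367, 0.037 and 0.0422 CPM in the PPFP libraries. This amounted to 612 counts in EV cells against 3 in PPFP cells, a ratio of 179 with a counting interval (95%) of 60.9 to 870, and the adjusted p was 2.2e-05. The fitted log2 fold change of -7.31 depends on the prior count at so few reads. Bmp2, the close relative of Bmp4, was at 11, 13.9 and 13.2 CPM in EV cells against 5.58, 5.29 and 5.74 CPM in PPFP cells. All PPFP libraries lay below all EV libraries (log2 fold change ± SE -1.18 ± 0.14, adjusted p = 0.00038; values in parentheses are given in this form from here on). Such lack of overlap is given here and below as description only, because its share over all genes was not counted.

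Bmp5, a ligand of the Bmp7 subfamily, was low throughout, at 0.837, 0.602 and 0.617 CPM in EV cells against 0.0367, 0.0739 and 0.211 CPM in PPFP cells. The 8 counts in PPFP cells against 61 in EV cells gave a ratio of 6.69 (counting interval 3.19 to 16.2) with an adjusted p of 0.0048. Bmp7, a ligand needed for kidney and eye development, was at 185, 154 and 171 CPM in EV cells against 100, 86.8 and 80.7 CPM in PPFP cells. The groups did not overlap (-0.91 ± 0.11, adjusted p = 0.00049). Bmp8a, a ligand best known from the germ line, was at 6.36, 7.33 and 5.55 CPM and 3.96, 4.36 and 4.39 CPM (-0.58 ± 0.17, adjusted p = 0.024). Its call was lost in 5 of the 6 fits that left out 1 library (adjusted p 0.058 to 0.072) and held only without EV library 3, and its reads could be shared with its close paralog Bmp8b. Gdf11, a ligand of the activin-like branch, passed with a higher level in PPFP cells (0.58 ± 0.18, adjusted p = 0.031), a call lost without EV library 1 or any 1 of the PPFP libraries (adjusted p 0.065 to 0.079). Bmp3 (0.028 ± 0.26, adjusted p = 0.94) and Gdf15, a stress-induced cytokine (-0.34 ± 0.31, adjusted p = 0.39), did not pass.

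The sequences before the start of Bmp4, Inha, Inhbb and Id1 are shown because the first 3 had large differences between the lines among the ligand genes and Id1 is a direct BMP target. Each run holds the 250 bases before the RefSeq start, 5′ to 3′ on the gene's strand, in assembly GRCr8, at chr15:22101934-22102183 (minus strand), chr9:84442859-84443108 (plus), chr13:33089374-33089623 (minus) and chr3:161671314-161671563 (plus). Capitals mark GTCTG, the core of a SMAD-binding box, on either strand (CAGAC on the other), and GGCGCC, a GC-rich SMAD site that reads the same on both strands; the letters of the 2 motifs did not overlap in these windows.
Bmp4: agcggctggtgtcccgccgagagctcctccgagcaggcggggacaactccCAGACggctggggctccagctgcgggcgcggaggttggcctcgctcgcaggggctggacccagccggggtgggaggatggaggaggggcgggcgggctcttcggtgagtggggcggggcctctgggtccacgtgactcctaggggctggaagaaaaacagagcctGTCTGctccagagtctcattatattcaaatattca
Inha: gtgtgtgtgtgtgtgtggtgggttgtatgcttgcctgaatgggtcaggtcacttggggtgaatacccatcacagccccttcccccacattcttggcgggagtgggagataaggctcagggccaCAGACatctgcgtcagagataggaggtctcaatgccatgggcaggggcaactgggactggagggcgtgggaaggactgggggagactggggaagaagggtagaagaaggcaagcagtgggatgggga
Inhbb: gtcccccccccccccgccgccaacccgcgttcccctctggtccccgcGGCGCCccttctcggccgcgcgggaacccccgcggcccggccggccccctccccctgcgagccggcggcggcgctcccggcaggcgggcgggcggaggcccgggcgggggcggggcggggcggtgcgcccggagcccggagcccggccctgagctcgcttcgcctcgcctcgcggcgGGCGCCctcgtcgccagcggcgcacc
Id1: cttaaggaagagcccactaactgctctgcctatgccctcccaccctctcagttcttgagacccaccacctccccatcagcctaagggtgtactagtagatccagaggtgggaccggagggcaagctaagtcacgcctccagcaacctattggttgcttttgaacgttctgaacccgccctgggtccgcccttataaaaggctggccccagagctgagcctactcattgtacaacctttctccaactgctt
Bmp4 held GTCTG at 35 bases before the start and, on the other strand, at 200 bases, Inha held it once at 127 bases on the other strand, and Inhbb held GGCGCC at 203 and 26 bases; neither motif was among the letters of the Id1 window. Of 33469 windows of the same length before RefSeq starts, 42.9% held GTCTG and 8.69% held GGCGCC. Among the 39 tested members that matched this table by symbol, 7 held GTCTG and 10 held GGCGCC, which describes letters in these windows and not binding.

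Of the 6 TGF-beta and activin ligands, 5 were tested, and 3 were lower and 2 higher in PPFP cells. Inhbb encodes the beta B chain of activins and inhibins, and was at 74.5, 66.1 and 66.9 CPM in EV cells against 16.7, 19.4 and 19.5 CPM in PPFP cells. This was 3.68-fold lower with no overlap (-1.88 ± 0.11, adjusted p = 1.6e-05). Inha, the inhibin alpha chain that pairs with a beta chain into an activin antagonist, was at 4.25, 3.88 and 2.88 CPM in EV cells against 0, 0.111 and 0.127 CPM in PPFP cells. The 6 counts in PPFP cells against 327 in EV cells gave a ratio of 47.8 (counting interval 21.7 to 131; adjusted p = 0.00014).

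The TGF-beta isoforms, which bind the same receptor pair, differed from each other in direction. Tgfb1 was at 25.7, 23.9 and 30.2 CPM in EV cells against 10.9, 19.2 and 15.1 CPM in PPFP cells. It was lower in PPFP cells (-0.80 ± 0.20, adjusted p = 0.014), a call lost without PPFP library 3 (adjusted p = 0.054). Tgfb2 was at 47.4, 54.4 and 37.6 CPM in EV cells against 75.8, 96.2 and 91.2 CPM in PPFP cells, with every PPFP library above every EV library (0.94 ± 0.16, adjusted p = 0.0026). Tgfb3 was at 83.9, 81.9 and 87.2 CPM in EV cells against 104, 106 and 111 CPM in PPFP cells. It was also higher without overlap, but only 1.28-fold (0.36 ± 0.072, adjusted p = 0.005).

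All 3 tested latent TGF-beta binding proteins, which tie latent TGF-beta or other matrix proteins into the extracellular matrix, were lower in PPFP cells. Ltbp4 was at 148, 139 and 155 CPM in EV cells against 48.7, 55.2 and 50.7 CPM in PPFP cells, 2.81-fold lower (-1.49 ± 0.084, adjusted p = 1.5e-05). Ltbp2, which does not bind latent TGF-beta itself, was at 10.7, 9.61 and 7.13 CPM and 1.47, 2.62 and 2.2 CPM (-2.11 ± 0.26, adjusted p = 0.00058). Ltbp3 was at 289, 262 and 298 CPM and 175, 191 and 178 CPM, with the smallest difference of the 3 (-0.62 ± 0.082, adjusted p = 0.00076). In each of these genes the PPFP libraries lay below the EV libraries without overlap. Bmp1, which matches the symbol rule but encodes a procollagen C-proteinase that also cleaves Chordin, was lower as well (-0.49 ± 0.13, adjusted p = 0.014), a call lost without EV library 1 or PPFP library 3 (adjusted p 0.056 and 0.054).

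Of the 7 secreted antagonists and follistatin family genes, 4 were tested and 2 of them were lower, near the 45.2% of all genes that passed in either direction. Chrd encodes Chordin, which binds BMPs outside the cell, and was at 3.95, 3.51 and 2.43 CPM in EV cells against 0.147, 0.555 and 0.464 CPM in PPFP cells. It was 8.36-fold lower (-3.06 ± 0.42, adjusted p = 0.00083). Nbl1 encodes a BMP antagonist of the DAN family and was low throughout, at 0.804, 1.04 and 0.822 CPM in EV cells against 0.44, 0.259 and 0.549 CPM in PPFP cells. Its call (-1.08 ± 0.34, adjusted p = 0.034) was lost by DESeq2 (adjusted p = 0.054) and without EV library 1, EV library 2, PPFP library 1 or PPFP library 2 (adjusted p 0.06 to 0.11). Fstl1 (-0.68 ± 0.26, adjusted p = 0.066) and the activin-binding Fstl3 (-0.10 ± 0.12, adjusted p = 0.52) did not pass. Fstl1 did pass by DESeq2 and edgeR's exact test (adjusted p 0.031 and 0.034) and without EV library 3 (adjusted p = 0.0067).

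Among the 13 receptor genes, with the pseudoreceptor Bambi counted in, 8 were lower, 1 was higher and 4 did not pass. Bmpr1b, a type I BMP receptor, was at 0.502, 0.971 and 0.582 CPM in EV cells against 7.89, 6.77 and 7.68 CPM in PPFP cells. It was the only member more than 2-fold higher in PPFP cells (3.45 ± 0.26, adjusted p = 5e-05). Acvr1, the type I receptor also called ALK2, went the other way, with 33.8, 38.5 and 29.3 CPM in EV cells against 15.9, 16.2 and 16 CPM in PPFP cells (-1.06 ± 0.12, adjusted p = 0.00043). The co-receptor Tgfbr3, or betaglycan, was at 35.1, 45.4 and 31.5 CPM and 16.3, 21.7 and 19.7 CPM (-0.94 ± 0.17, adjusted p = 0.0034). Both were lower without overlap between the lines.

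Bmpr1a, the other type I BMP receptor, was at 125, 137 and 116 CPM in EV cells against 102, 98.1 and 101 CPM in PPFP cells (-0.31 ± 0.09, adjusted p = 0.024). That call was lost without EV library 1, EV library 2, PPFP library 2 or PPFP library 3 (adjusted p 0.051 to 0.081). Bmpr2, the type II BMP receptor, was at 87, 99.3 and 82.6 CPM and 79.6, 87.6 and 84.3 CPM, with overlapping groups (-0.077 ± 0.10, adjusted p = 0.56). Tgfbr1, the type I TGF-beta receptor, was at 56.1, 62.6 and 60 CPM and 59.1, 55.5 and 54.9 CPM, and also overlapped (-0.055 ± 0.081, adjusted p = 0.61). Tgfbr2, its type II partner, was at 170, 186 and 168 CPM and 200, 199 and 195 CPM, and the adjusted p missed the threshold (0.20 ± 0.08, adjusted p = 0.073), though not by DESeq2, in the fit of all 12 libraries or without EV library 2 (adjusted p 0.032 to 0.043). Acvr1b (-0.45 ± 0.16, adjusted p = 0.049), Acvr1c (-0.94 ± 0.21, adjusted p = 0.0091), Acvr2a (-0.40 ± 0.13, adjusted p = 0.039), Acvr2b (-0.61 ± 0.16, adjusted p = 0.016) and Bambi (-0.96 ± 0.21, adjusted p = 0.0076) were lower in PPFP cells, and Acvrl1 did not pass (-0.50 ± 0.43, adjusted p = 0.38). The calls of Acvr1b and Acvr2a each held only without EV library 3 among the 6 fits that left out 1 library (adjusted p 0.051 to 0.14 and 0.067 to 0.11 in the others), and that of Acvr1b was also lost with RLE size factors and with at least 10 counts in every library (adjusted p 0.051 and 0.054). Acvr2b lost its call without EV library 1 or PPFP library 2 (adjusted p 0.058 and 0.054), and Acvr1c and Bambi kept theirs in all 6 fits.

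Of the 8 SMAD genes, 3 were lower and 5 did not pass. The 37.5% that passed is below the 45.2% of all genes that passed in either direction. Smad7, the inhibitory SMAD induced by both branches, was at 67, 88.9 and 64.8 CPM in EV cells against 29.1, 31 and 28.4 CPM in PPFP cells. It was 2.46-fold lower with no overlap (-1.30 ± 0.14, adjusted p = 0.00029). Smad4, the shared partner, was at 66.1, 74.8 and 60.6 CPM in EV cells against 46.5, 50.7 and 51.7 CPM in PPFP cells (-0.42 ± 0.11, adjusted p = 0.017), and its call was lost without EV library 1 (adjusted p = 0.054). Smad9, a BMP-branch SMAD, was at 31.4, 34 and 34.6 CPM and 27.7, 22.6 and 21.5 CPM (-0.46 ± 0.11, adjusted p = 0.013), and its call was lost without PPFP library 2 or PPFP library 3 (adjusted p 0.055 and 0.066).

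The other SMADs did not pass with the 6 libraries and TMM scaling. Smad6, the BMP-selective inhibitor, was at 25.3, 25.1 and 34.3 CPM in EV cells against 24.7, 19 and 17.2 CPM in PPFP cells (-0.45 ± 0.17, adjusted p = 0.06). It passed by DESeq2, by the exact test, with library size alone, in the fit of all 12 libraries and without PPFP library 1 (adjusted p 0.026 to 0.036). Smad1 was at 65.6, 64.1 and 66.3 CPM and 76.7, 65.5 and 65.7 CPM (0.11 ± 0.087, adjusted p = 0.35), and Smad5, the other main BMP effector, at 44.5, 47.4 and 40 CPM and 39.4, 41.1 and 42.5 CPM (-0.081 ± 0.10, adjusted p = 0.55). Both pairs of groups overlapped. Smad2 was at 72.3, 79.1 and 81.1 CPM in EV cells against 72.3, 61 and 58.4 CPM in PPFP cells (-0.26 ± 0.10, adjusted p = 0.068), and passed with library size alone, in the fit of all 12 libraries and without PPFP library 1 (adjusted p 0.016, 0.045 and 0.021). Smad3, the other effector of the TGF-beta branch, was at 98.3, 123 and 80.2 CPM and 81.9, 117 and 111 CPM, with wide overlap (0.059 ± 0.19, adjusted p = 0.83).

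Of the 4 ID genes, which encode inhibitors of basic helix-loop-helix transcription factors, 2 were lower, near the 45.2% of all genes that passed in either direction. Id3 was at 326, 342 and 398 CPM in EV cells against 184, 175 and 175 CPM in PPFP cells. It was 1.97-fold lower without overlap (-0.98 ± 0.087, adjusted p = 0.00012). Id1 was at 128, 132 and 155 CPM in EV cells against 118, 110 and 109 CPM in PPFP cells (-0.28 ± 0.087, adjusted p = 0.034), and its call held only without EV library 2 among the 6 fits that left out 1 library (adjusted p 0.052 to 0.15 in the others). Id2 was at 22.2, 25.2 and 21.8 CPM and 21, 22.1 and 21.4 CPM (-0.08 ± 0.10, adjusted p = 0.55), and Id4 at 159, 206 and 181 CPM and 219, 194 and 191 CPM (0.17 ± 0.11, adjusted p = 0.25). Neither passed, and both overlapped between the lines.

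**Figure D2:**
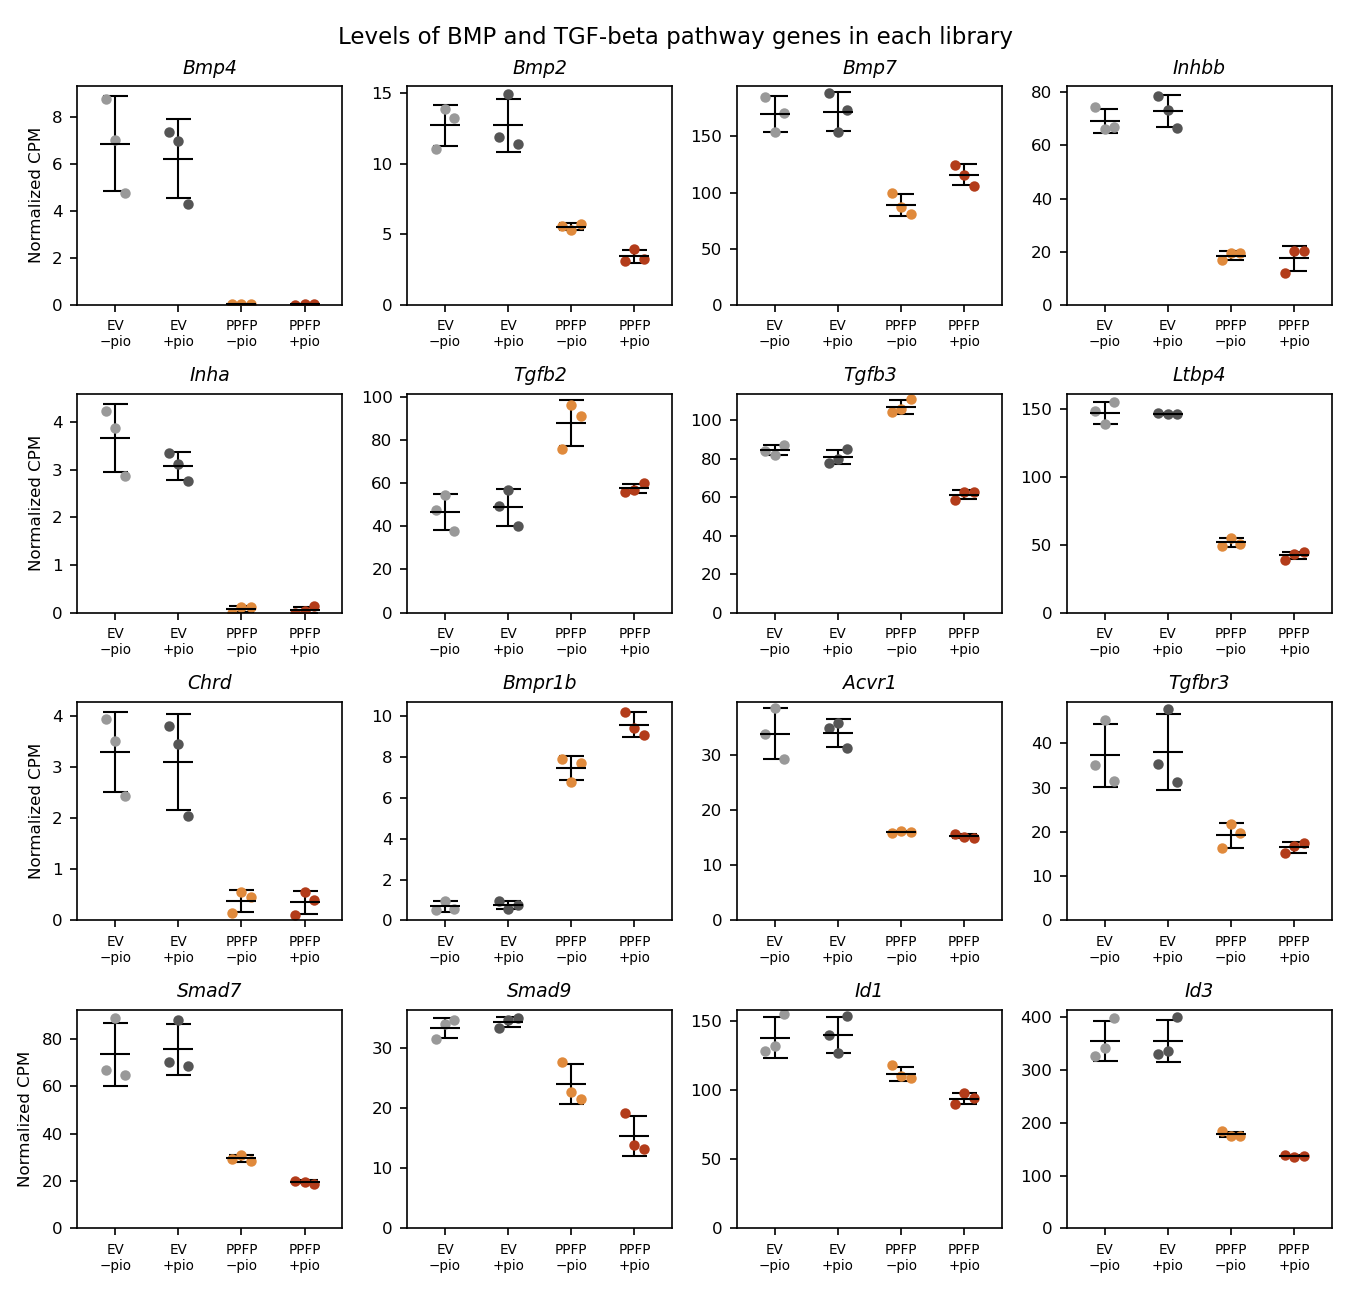
Level (CPM) in each library of the 4 groups for 16 members, with the group mean and SD (bars, n = 3); the vertical axes start at 0 and differ between genes. Bmp4 and Inha lie near 0 in all PPFP libraries, and Tgfb3 is above the EV level in PPFP cells without pioglitazone and below it with pioglitazone.

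The remaining 15 members had too few counts to be tested. No count was found in any of the 12 libraries for Bmp15, Gdf1, Gdf6, Gdf9, Grem1 and Nog, which allows a level of up to 0.00866 CPM at 3 counts over all libraries. Bmp10, Bmp6, Gdf10, Gdf2, Gdf3, Gdf7, Fst and Inhba had between 1 and 4 counts in all, and Ltbp1 had 33. So Noggin and Gremlin 1 were not detectable at this depth, and Inhba, the activin beta A chain, gave a single count.

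When both lines were cultured with pioglitazone, the members again were mostly lower in PPFP cells. Bmp4, Inha, Inhbb, Ltbp4 and Smad7 were again lower and Bmpr1b was 12.7-fold higher, while Tgfb3 was now lower and Tgfb2 did not pass. Of 46 members, 26 (56.5%) were lower and 4 higher, against 26.4% and 26.3% of all 10291 genes tested. With a fold change above 2, 16 were lower and 1 higher, against 10.4% and 9.3% of all genes. Where every library needed at least 10 counts, the same 5 low members (Bmp4, Inha, Bmp5, Chrd and Nbl1) were not tested. These 5 are also among the 26 lower members. Past the fold of 2, 11 were then lower and 1 higher. Under that filter 4769 of all 9498 genes tested passed the adjusted p, and the share past the fold of 2 was not counted. The median log2 fold change was -0.48 over the members and 0.012 over all genes. Scaling by library size alone moved the median of all genes to -0.12 and that of the members to -0.62.

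Among the ligands, Bmp4 was at 7.4, 7 and 4.31 CPM in EV cells against 0, 0.0373 and 0.0331 CPM in PPFP cells with pioglitazone. This was 613 counts against 2, a ratio of 266 (counting interval 73.3 to 2201; adjusted p = 2.8e-05). Inha was at 3.35, 3.13 and 2.76 CPM and 0, 0.0373 and 0.132 CPM, 299 counts against 5 (ratio 51.9, counting interval 22 to 161; adjusted p = 1e-04). Bmp5 was at 0.891, 0.48 and 0.467 CPM and 0.0378, 0.187 and 0.166 CPM, 61 counts against 11 (ratio 4.81, counting interval 2.51 to 10.1; adjusted p = 0.012). These 3 genes thus stayed low in PPFP cells with pioglitazone. Inhbb was at 78.8, 73.4 and 66.7 CPM in EV cells against 12.1, 20.2 and 20.2 CPM in PPFP cells (-2.03 ± 0.21, adjusted p = 2e-04). Bmp2 was at 11.9, 14.9 and 11.4 CPM and 3.1, 3.95 and 3.21 CPM (-1.87 ± 0.17, adjusted p = 0.00013), and Bmp8a at 5.75, 7.67 and 5.17 CPM and 1.93, 2.2 and 2.62 CPM (-1.43 ± 0.22, adjusted p = 0.0013). All 3 were lower without overlap. Bmp7 was at 189, 154 and 174 CPM in EV cells against 125, 116 and 106 CPM in PPFP cells (-0.54 ± 0.10, adjusted p = 0.0033), and Gdf11 was again higher (0.65 ± 0.19, adjusted p = 0.025), a call lost without EV library 1, PPFP library 1 or PPFP library 2 (adjusted p 0.058 to 0.076).

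Tgfb1 was at 26.5, 26.1 and 28.3 CPM in EV cells against 13.4, 19.9 and 18.7 CPM in PPFP cells with pioglitazone, lower without overlap (-0.61 ± 0.16, adjusted p = 0.015). Tgfb2 was at 49.3, 56.8 and 39.9 CPM and 55.8, 56.7 and 59.9 CPM, and the groups overlapped (0.27 ± 0.13, adjusted p = 0.13; adjusted p = 0.033 without EV library 2). Tgfb3 was at 77.7, 79.9 and 85.1 CPM and 58.7, 62.4 and 62.8 CPM, lower in every PPFP library (-0.37 ± 0.076, adjusted p = 0.0053). Of the matrix and extracellular genes, Ltbp4 was at 147, 146 and 146 CPM and 38.8, 42.8 and 44.5 CPM (-1.77 ± 0.082, adjusted p = 7.3e-06). Ltbp2 was at 10.9, 11.8 and 7.39 CPM and 1.1, 1.9 and 2.22 CPM (-2.49 ± 0.30, adjusted p = 0.00044), and Ltbp3 at 296, 245 and 304 CPM and 117, 132 and 132 CPM (-1.12 ± 0.11, adjusted p = 0.00019). All 3 tested Ltbp genes were more than 2-fold lower here. Chrd was at 3.81, 3.45 and 2.05 CPM and 0.113, 0.56 and 0.397 CPM (-3.08 ± 0.46, adjusted p = 0.0012), and Nbl1 at 0.756, 1.44 and 1.04 CPM and 0.529, 0.298 and 0.232 CPM (-1.58 ± 0.39, adjusted p = 0.012). Fstl3, a soluble activin and myostatin inhibitor, was higher in PPFP cells (0.38 ± 0.10, adjusted p = 0.013), a call lost with library size alone (adjusted p = 0.074) and without PPFP library 2 or PPFP library 3 (adjusted p 0.074 and 0.059). Bmp1 was lower (-0.92 ± 0.11, adjusted p = 0.00042).

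Of the receptors, Bmpr1b was at 0.945, 0.576 and 0.754 CPM in EV cells against 10.2, 9.4 and 9.04 CPM in PPFP cells with pioglitazone (3.67 ± 0.20, adjusted p = 1.5e-05). Acvr1 was at 34.9, 35.9 and 31.2 CPM and 15.7, 15.2 and 14.9 CPM (-1.13 ± 0.091, adjusted p = 7e-05), and Tgfbr3 at 35.3, 47.8 and 31.3 CPM and 15.2, 16.9 and 17.4 CPM (-1.18 ± 0.17, adjusted p = 0.00094). The type I receptor Bmpr1b was thus high and the other 2 low in all PPFP libraries. Bmpr1a was at 122, 141 and 119 CPM and 98.4, 102 and 97.8 CPM (-0.33 ± 0.086, adjusted p = 0.015), and Acvr1c passed as lower (-0.81 ± 0.17, adjusted p = 0.0055). Acvr1b (-0.30 ± 0.15, adjusted p = 0.12), Acvr2a (-0.26 ± 0.12, adjusted p = 0.1), Acvr2b (-0.41 ± 0.16, adjusted p = 0.059), Bambi (-0.51 ± 0.23, adjusted p = 0.1) and Acvrl1 (-0.40 ± 0.40, adjusted p = 0.43) did not pass. Acvr2b passed with library size alone, in the fit of all 12 libraries, with at least 10 counts in every library and without EV library 3 (adjusted p 0.022 to 0.048), Acvr2a with library size alone (adjusted p = 0.027), and Acvr1b and Bambi without EV library 3 (adjusted p 0.023 and 0.028). Bmpr2 was at 87.7, 98.4 and 89.1 CPM and 77.1, 77.1 and 78.7 CPM (-0.21 ± 0.074, adjusted p = 0.047); its call held only without EV library 3 among the fits that left out 1 library (adjusted p 0.076 to 0.12 in the others) and was lost by edgeR's exact test (adjusted p = 0.093). Tgfbr2 was at 167, 187 and 166 CPM and 218, 208 and 199 CPM, higher in PPFP cells (0.29 ± 0.079, adjusted p = 0.017), and lost its call with library size alone (adjusted p = 0.13) and without EV library 1, EV library 3, PPFP library 2 or PPFP library 3 (adjusted p 0.059 to 0.099). Tgfbr1 was at 56.3, 65.8 and 59.2 CPM and 65.8, 56.6 and 58.4 CPM, and the groups overlapped (0.024 ± 0.092, adjusted p = 0.85).

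Among the SMADs, Smad7 was at 70.3, 88.2 and 68.4 CPM in EV cells against 20.2, 19.7 and 18.9 CPM in PPFP cells with pioglitazone, 3.78-fold lower (-1.92 ± 0.12, adjusted p = 2e-05). Smad9 was at 33.3, 34.6 and 35 CPM and 19.2, 13.9 and 13.1 CPM (-1.13 ± 0.14, adjusted p = 0.00057), and Smad4 at 66.3, 77.3 and 61 CPM and 46.2, 48.3 and 48.1 CPM (-0.49 ± 0.10, adjusted p = 0.0058). These PPFP libraries lay below all EV libraries. Smad6 was at 29.1, 23 and 29.6 CPM and 21.9, 18.5 and 17.7 CPM (-0.47 ± 0.13, adjusted p = 0.021), a call lost without EV library 1, PPFP library 2 or PPFP library 3 (adjusted p 0.066 to 0.071). Smad1 was at 63.1, 61.8 and 61.4 CPM and 71.9, 67.7 and 66.6 CPM (0.17 ± 0.069, adjusted p = 0.068), and Smad5 at 42.8, 42.4 and 41.2 CPM and 44.9, 43.3 and 41.1 CPM (0.06 ± 0.072, adjusted p = 0.51). Smad2 was at 72.7, 77.9 and 76.9 CPM and 83.4, 71.2 and 67.1 CPM (-0.01 ± 0.091, adjusted p = 0.93), and Smad3 at 97.3, 111 and 81.9 CPM and 94.2, 125 and 120 CPM (0.26 ± 0.15, adjusted p = 0.19). None of these last 4 effectors passed.

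Of the ID genes with pioglitazone, Id3 was at 330, 335 and 401 CPM in EV cells against 139, 136 and 137 CPM in PPFP cells, 2.54-fold lower (-1.34 ± 0.094, adjusted p = 3.7e-05). Id1 was at 140, 127 and 154 CPM and 89.7, 98 and 94.2 CPM (-0.55 ± 0.091, adjusted p = 0.0019). For both genes the lines did not overlap. Id2 was at 23.4, 24.3 and 19 CPM and 25.3, 26 and 24.3 CPM (0.21 ± 0.12, adjusted p = 0.16), and Id4 at 169, 196 and 168 CPM and 166, 140 and 134 CPM (-0.25 ± 0.11, adjusted p = 0.081), neither of which passed; Id4 passed with library size alone and without PPFP library 1 (adjusted p 0.015 and 0.031).

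The next question was which members respond to pioglitazone when the fusion protein is present, in PPFP cells alone. This comparison shares its libraries with those between the lines, so values are set side by side and no overlap is counted. Tgfb3, Tgfb2, Bmp2, Bmp8a, Ltbp3, Smad7, Smad9, Id1, Id3 and Id4 fell, and Bmp7 and Fstl3 rose. Of 43 members tested, 10 (23.3%) were lower and 2 higher with pioglitazone, against 7.13% and 7.63% of all 10064 genes. None of the 43 passed with a fold change above 2 by edgeR, against 2.42% of all genes, and 18 had an unadjusted p under 0.05; DESeq2 and edgeR's exact test also gave 0 members past that fold. In this comparison libraries with the same number deviated together. Libraries 2 and 3 did so no more with their own number (0.719 and 0.674) than with the other (up to 0.762). With the replicate number as a block 13 members were higher and 14 lower, against 27.7% and 23.9% of all genes. Without the block, leaving out PPFP library 3 or 2 without pioglitazone, or PPFP library 2 or 3 with it, lowered the count of 12 members to 4, 5, 5 and 6. The matching counts over all genes were not taken.

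Tgfb3 had the smallest adjusted p of the members. Its libraries went from 104, 106 and 111 CPM without pioglitazone to 58.7, 62.4 and 62.8 CPM with it (-0.79 ± 0.062, adjusted p = 0.00088). Tgfb2 went from 75.8, 96.2 and 91.2 CPM to 55.8, 56.7 and 59.9 CPM (-0.61 ± 0.10, adjusted p = 0.012), and lost its call without untreated library 3 or treated library 2 (adjusted p 0.06 and 0.063; with the block -0.60 ± 0.05, adjusted p = 4e-10). Both isoforms fell without overlap between the treatments, while Tgfb1 did not pass (0.21 ± 0.25, adjusted p = 0.64) except with the block (0.21 ± 0.072, adjusted p = 0.017). Bmp2 went from 5.58, 5.29 and 5.74 CPM to 3.1, 3.95 and 3.21 CPM (-0.69 ± 0.14, adjusted p = 0.021), and Bmp8a from 3.96, 4.36 and 4.39 CPM to 1.93, 2.2 and 2.62 CPM (-0.91 ± 0.16, adjusted p = 0.014). Each was lost in 3 of the 6 fits that left out 1 library (adjusted p 0.057 to 0.094 for Bmp2, without untreated library 2 or 3 or treated library 3, and 0.054 to 0.068 for Bmp8a, without untreated library 2 or 3 or treated library 2). Bmp7 rose from 100, 86.8 and 80.7 CPM to 125, 116 and 106 CPM (0.38 ± 0.091, adjusted p = 0.039); its call held only without untreated library 1 (adjusted p 0.075 to 0.16 in the other fits) and also missed the threshold in a fit of all 12 libraries (adjusted p = 0.05). With the block it was 0.38 ± 0.041, adjusted p = 3.1e-08.

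Smad7 went from 29.1, 31 and 28.4 CPM to 20.2, 19.7 and 18.9 CPM, 1.5-fold lower (-0.59 ± 0.063, adjusted p = 0.0024). Smad9 went from 27.7, 22.6 and 21.5 CPM to 19.2, 13.9 and 13.1 CPM (-0.64 ± 0.16, adjusted p = 0.048), and its call held only without treated library 1 (adjusted p 0.084 to 0.17 in the other fits) and was lost without a filter on low counts (adjusted p = 0.055). With the block it was -0.64 ± 0.065, adjusted p = 1.3e-08. Id3 went from 184, 175 and 175 CPM to 139, 136 and 137 CPM (-0.37 ± 0.045, adjusted p = 0.0037), and Id4 from 219, 194 and 191 CPM to 166, 140 and 134 CPM (-0.46 ± 0.09, adjusted p = 0.019). Id1 went from 118, 110 and 109 CPM to 89.7, 98 and 94.2 CPM (-0.26 ± 0.061, adjusted p = 0.039). The treated libraries of these ID genes lay below the untreated ones, and the calls of Id4 and Id1 were each lost without untreated library 2 or 3 or treated library 2 or 3 (adjusted p 0.063 to 0.093 and 0.069 to 0.11); Id1 also missed the threshold in the fit of all 12 libraries (adjusted p = 0.058). With the block they were -0.46 ± 0.036, adjusted p = 1.6e-10 for Id4 and -0.26 ± 0.045, adjusted p = 4.6e-05 for Id1. Id2 went the other way, from 21, 22.1 and 21.4 CPM to 25.3, 26 and 24.3 CPM, and passed only with the block and by DESeq2 (0.23 ± 0.062, adjusted p = 0.055; with the block 0.23 ± 0.058, adjusted p = 0.002).

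Of the extracellular proteins, Ltbp3 went from 175, 191 and 178 CPM to 117, 132 and 132 CPM (-0.51 ± 0.076, adjusted p = 0.0076), and Fstl3 rose from 14, 12.9 and 12.2 CPM to 18, 18.1 and 17.5 CPM (0.45 ± 0.077, adjusted p = 0.012), a call lost without untreated library 2 or 3 or treated library 2 or 3 (adjusted p 0.057 to 0.063). Ltbp4 had an adjusted p above the threshold (-0.29 ± 0.086, adjusted p = 0.074) and passed with the block (-0.29 ± 0.05, adjusted p = 2.8e-05), by DESeq2, in the fit of all 12 libraries and without untreated library 1 (adjusted p 0.023, 0.021 and 0.043). None of the 13 receptor genes passed, with log2 fold changes between -0.22 and 0.38; the smallest adjusted p was that of Bmpr1b (0.36 ± 0.10, adjusted p = 0.063), which passed by DESeq2 (adjusted p = 0.04). With the block, Bmpr1b (0.36 ± 0.091, adjusted p = 0.0018), Bambi (0.38 ± 0.091, adjusted p = 0.0011), Acvr1b (0.19 ± 0.05, adjusted p = 0.0024) and Acvr2a (0.20 ± 0.075, adjusted p = 0.031) were higher with pioglitazone, and Tgfbr3 (-0.21 ± 0.068, adjusted p = 0.012) and Bmpr2 (-0.11 ± 0.043, adjusted p = 0.04) lower. Gdf15 (0.65 ± 0.055, adjusted p = 6.2e-10), Bmp3 (0.22 ± 0.083, adjusted p = 0.033), Smad2 (0.21 ± 0.043, adjusted p = 0.00023) and Smad3 (0.14 ± 0.04, adjusted p = 0.0054) were also higher with the block and passed under no other alternative run. Fstl1 was higher with the block (0.55 ± 0.087, adjusted p = 1.1e-05), by DESeq2 and by the exact test (adjusted p 0.04 and 0.044). Bmp1 was lower with the block (-0.41 ± 0.047, adjusted p = 9.3e-08), by DESeq2, by the exact test, in the fit of all 12 libraries and without untreated library 1 (adjusted p 0.016, 0.023, 0.049 and 0.023). Inhbb, Ltbp2, Chrd, Acvr1 and Smad4, all lower in PPFP than in EV cells, had log2 fold changes of -0.076, -0.26, -0.10, -0.068 and -0.059 with pioglitazone and did not pass with or without the block.

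**Figure D3:**
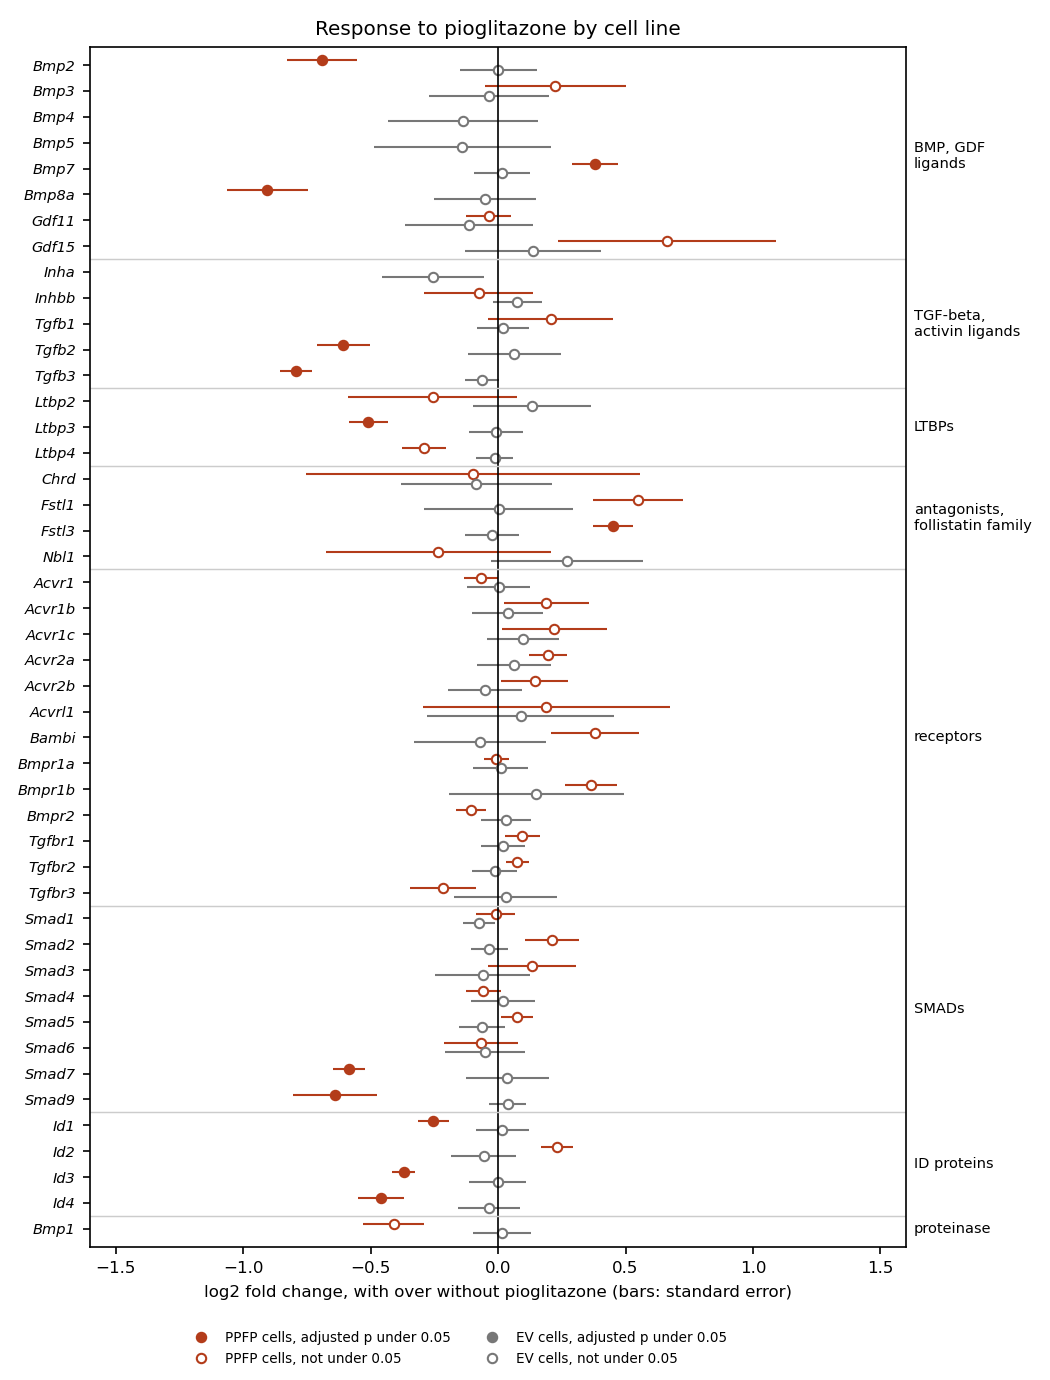
Log2 fold change with over without pioglitazone in PPFP cells (red) and EV cells (grey) for the tested members, with standard errors; filled points have an adjusted p under 0.05 in the fit without a replicate block. The EV points lie between -0.25 and 0.27, and the filled points are all of PPFP cells.

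In EV cells, no member passed for pioglitazone. The log2 fold changes of the 46 members tested lay between -0.25 (Inha) and 0.27 (Nbl1). None of the 46 passed by edgeR, DESeq2 or edgeR's exact test, and 0% of the 10146 genes tested were called. None of the 46 had an unadjusted p under 0.05 by any of these, but over all genes only 16, 7 and 11 did. These tests leave out the pairing of libraries within the line, so they say little about small responses. With the replicate block 1 member had an unadjusted p under 0.05 and the lowest adjusted p was 0.72. Tgfb3 was at 83.9, 81.9 and 87.2 CPM without and 77.7, 79.9 and 85.1 CPM with pioglitazone (-0.063 ± 0.067, adjusted p = 1), and Smad7 at 67, 88.9 and 64.8 CPM and 70.3, 88.2 and 68.4 CPM (0.036 ± 0.16, adjusted p = 1). Both pairs of groups overlapped.

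Whether the response to pioglitazone differed between the lines was tested as an interaction over the 12 libraries. Tgfb3 was the only one of 46 members that passed, with a response 1.68-fold lower in PPFP cells than in EV cells (-0.75 ± 0.082, adjusted p = 0.0011). That is 1 member with a lower and 0 with a higher response, against 1.26% and 1.38% of all 10482 genes. Fstl3 (0.46 ± 0.13, adjusted p = 0.094), Smad9 (-0.69 ± 0.19, adjusted p = 0.095), Bmp2 (-0.71 ± 0.21, adjusted p = 0.11), Id3 (-0.38 ± 0.11, adjusted p = 0.12), Smad7 (-0.64 ± 0.19, adjusted p = 0.13) and Ltbp3 (-0.52 ± 0.13, adjusted p = 0.059) did not pass. With the replicate number as a block within each cell line, 13 members had a lower and 8 a higher response in PPFP cells, against 17.1% and 17.2% of all genes. The lower ones were Tgfb3 (-0.74 ± 0.05, adjusted p = 1.3e-07), Smad7 (-0.64 ± 0.062, adjusted p = 4.4e-06), Ltbp3 (-0.51 ± 0.053, adjusted p = 7.9e-06), Smad9 (-0.69 ± 0.073, adjusted p = 9.3e-06), Tgfb2 (-0.68 ± 0.074, adjusted p = 1.1e-05), Id3 (-0.38 ± 0.043, adjusted p = 1.4e-05), Id4, Id1, Bmp2, Bmp8a, Bmp1, Ltbp4 and Tgfbr3, the last 7 with log2 differences between -0.87 and -0.25. The higher ones were Bmp7 (0.36 ± 0.046, adjusted p = 5e-05), Gdf15, Fstl3, Fstl1, Bambi, Smad2, Id2 and Smad3. Without the block, DESeq2 called 6 members, which were Tgfb3, Bmp2, Fstl3, Ltbp3, Smad7 and Smad9 (adjusted p 0.014 to 0.045 for the last 5). Over all 10482 genes DESeq2 called 601, against 277 by edgeR, so its calls rose beyond the members.

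Other genes of the pathways were counted from lists of 51 regulators and 20 targets. Without pioglitazone, 8 of the 28 regulators tested were higher and 8 lower in the PPFP line, and of the 14 targets tested 3 were higher and 6 lower. With pioglitazone, 10 of 29 regulators were higher and 10 lower, and 2 of 14 targets were higher and 7 lower. The median log2 fold changes without pioglitazone were 0.14 over the regulators and -0.46 over the targets. Both lists thus held genes of either direction, beside the 23.1% lower and 22% higher of all genes without pioglitazone and the 26.4% and 26.3% with it.

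The 5 of these genes with the smallest adjusted p without pioglitazone were Fn1, Ctgf, Sostdc1, Rgma and Map3k7. Fn1, the fibronectin gene that TGF-beta induces in many cells, was at 245, 242 and 223 CPM in EV cells against 2137, 2630 and 2538 CPM in PPFP cells (3.38 ± 0.12, adjusted p = 3.5e-06). Ctgf, another matrix-related TGF-beta target, was at 638, 692 and 502 CPM and 78.8, 110 and 97.3 CPM (-2.66 ± 0.18, adjusted p = 2.9e-05). These targets thus differed in opposite directions. Sostdc1, a secreted BMP and Wnt antagonist, was at 9.11, 6.43 and 6.37 CPM in EV cells against 0.0734, 0 and 0 CPM in PPFP cells. The 2 counts in PPFP cells against 650 in EV cells gave a ratio of 285 (counting interval 78.6 to 2358; adjusted p = 3e-05). Like the low members named above, Sostdc1 was tested through its EV counts. Rgma, a BMP co-receptor, was at 41.1, 34.7 and 48.7 CPM and 111, 112 and 100 CPM (1.40 ± 0.12, adjusted p = 0.00011), and Map3k7, the kinase TAK1 of the SMAD-independent branch, at 197, 187 and 231 CPM and 103, 98.7 and 98.6 CPM (-1.01 ± 0.09, adjusted p = 0.00011). Rgma was higher and Map3k7 lower in every PPFP library.

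In PPFP cells with versus without pioglitazone, 4 of 26 regulators rose and 1 fell, and of 14 targets 1 rose and 3 fell, beside 7.63% higher and 7.13% lower of all genes. The median log2 fold changes were 0.093 over the regulators and -0.31 over the targets. Past a fold of 2 there were 0 regulators and 1 target, which was higher. In EV cells none of the 28 regulators and 15 targets tested passed. By the interaction test 1 of 29 regulators and 1 of 15 targets had a higher response in the PPFP line and none a lower one, beside 1.38% and 1.26% of all genes. The regulator, singled out after its values were seen, was Ppm1a, which encodes a phosphatase of SMAD2 and SMAD3 (0.62 ± 0.14, adjusted p = 0.044). Rgma was one of the regulators that rose with pioglitazone in PPFP cells, to 159, 148 and 140 CPM (0.47 ± 0.065, adjusted p = 0.0061).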

How the data were processed

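RNA was measured in 12 libraries of PCCL3 cells, 3 for each of EV and PPFP cells with and without pioglitazone. Per the labels and methods, the authors aligned paired reads to rn4 with TopHat2 2.0.11 and deposited whole-number counts per gene from HTSeq 0.6.1p1 in its intersection-strict mode. The library kit does not mark strand, so reads of overlapping or antisense genes cannot be told apart. Counts were tested in R 4.3.3 with edgeR 4.0.16 (filterByExpr, TMM, quasi-likelihood test, Benjamini-Hochberg adjustment over all genes tested) on the 6 libraries of the groups compared. The interaction used all 12. A member passed at an adjusted p under 0.05, with a fold change above 2 as a stricter rule. CPM used TMM factors between 0.926 and 1.05, and the SE was derived from the log2 fold change and the F statistic. CPM is not per length, so levels were compared within a gene. Counting intervals (95%, exact binomial) cover counting error only. The biological coefficient of variation was between 0.126 and 0.156. The code was tested on simulated counts.

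The members, roles and other gene lists were chosen with earlier results of these data known. Values in every library are given for members past both thresholds in a pairwise comparison or past the first for the interaction, and for a fixed set of core ligands, receptors, SMADs and ID genes; of the other pathway genes, for the 5 with the smallest adjusted p between the lines without pioglitazone. A gene of the target list is not reported here. Promoter sequences were taken from RefSeq (GRCr8), where 51 of the 61 members matched by symbol. No deposited column of sample values was left unused.

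Deviations of same-numbered libraries from their group means (9638 genes) correlated at 0.892, 0.719 and 0.674 between PPFP cells with and without pioglitazone, where libraries 2 and 3 also correlated at up to 0.762, and at 0.719, 0.877 and 0.916 in EV cells. The numbers were therefore taken to pair libraries within a line; the labels do not say what a number shares. Between the lines they did not (-0.532 to 0.475). Alternatives were DESeq2 1.42.0, edgeR's exact test, RLE size factors, library size alone, no filter, at least 10 counts in every library, a fold above 1.5, 1 fit of 12 libraries, the replicate block and leaving out each library. The ChIP-seq peak lists, in rn4, were not used here.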

Additional observations from a re-analysis of the deposited data

Results flagged for a closer look

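The response of Tgfb3 to pioglitazone differed between the lines by the interaction test, with a log2 difference of -0.745 ± 0.082 (SE; edgeR adjusted p = 0.0011). It fell in PPFP cells, by 0.79 on the log2 scale, and had a log2 fold change of -0.063 in EV cells that did not pass.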

How the results depend on the processing

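No named member's passing fold change took the opposite sign under any alternative run. Counts of members past the fold of 2 between the lines without pioglitazone went from 12 to 7 where every library needed at least 10 counts, a filter that removes 5 of the 12 (Bmp4, Inha, Bmp5, Chrd and Nbl1). For PPFP cells with versus without pioglitazone, the count of 12 became 6 with a fold above 1.5 and 27 with the replicate block, and lay between 4 and 13 when 1 library was left out; past a fold of 2 it was 0 or 1 when 1 library was left out, 1 without treated PPFP library 3. For the interaction, the count of 1 became 6 by DESeq2, 2 with library size alone (Tgfb3 and Smad9) and 21 with the replicate block within each cell line, and was 1 or 2 when 1 library was left out, 2 without EV library 2 of either treatment or treated PPFP library 1. Over all genes, calls in PPFP cells with versus without pioglitazone went from 1486 to 5198 with the block. Interaction calls over all genes went from 277 to 601 by DESeq2, 273 with library size alone and 3594 with the block. The cause of the shifts in these last 2 comparisons was not tested. Between the lines the numbers do not pair the libraries, and not every library correlated best with its own number, which also held for PPFP cells with and without pioglitazone. Between the lines the block gave 25 members without and 27 with pioglitazone against 31 and 30, and leaving out 1 library gave 21 to 31 and 25 to 32. Over all genes the block gave 4050 and 4545 against 4635 and 5425, and counts over all genes with 1 library left out were not taken. In EV cells the count stayed at 0 under the alternatives run. Low counts in PPFP cells limit Bmp4, Inha, Bmp5, Nbl1 and Chrd, and Sostdc1 of the other pathway genes. The planned checks of peaks near members were not run, because no annotation of the build of the peaks was used here.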
